A study of Canis lupus familiaris with 12 samples.

Results

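Mitochondrial ribosomal protein genes were taken as every probe set whose annotation gives a single gene symbol beginning with MRPL or MRPS and a number. The rule found 162 of 42924 tested probe sets, which named 73 of 15115 genes, and each gene was represented by its probe set with the highest mean over all arrays. The RNA came from MDCK II tet-off cells, which derive from the tubule epithelium of a dog's kidney and are an established line, grown under G418 in type I collagen for 8 days. On 6 arrays the cells had grown in the 2D condition as flat sheets, which served as the control, and on 6 arrays in the 3D condition. All cells were freed from the gels with collagenase, and each array received RNA pooled from 4 separate samples. The labels name no transgene induced or repressed in either group. Arrays of a group are biological replicates per the labels, which leave the make-up of each pool unstated. A p-value therefore reflects variation from pool to pool.

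Mitochondria carry their own ribosome, which makes the hydrophobic core subunits of the respiratory chain and ATP synthase from the messages of mitochondrial DNA. Its RNA is transcribed in the mitochondrion, whereas its proteins are encoded in the nucleus, made by cytosolic ribosomes and imported. MRPL symbols stand for proteins of the large subunit, which forms peptide bonds, and MRPS symbols mostly for proteins of the small subunit, which reads the message. Some of these proteins have counterparts in bacterial ribosomes, and others were added in the mitochondrial lineage. The kidney tubule is known for its dense mitochondria, since salt transport there consumes much ATP.

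Median intensities of the 12 arrays ran from 89.9 to 93.7. The 10 measured epithelial markers of the kidney tubule, among them CDH1, CDH16, EPCAM and PAX8, were above the level of the bacterial and tag control probes on every array. Their summed intensity was 30430 to 34310 in 2D and 35530 to 37490 in 3D. Of 8 fibroblast markers, COL3A1, PDGFRB and THY1 passed that level on every array and COL1A2 on none, with sums of 486.5 to 568.7 in 2D and 459.6 to 505.9 in 3D. Of 7 leukocyte markers, 6 passed it on every array, with sums of 616.1 to 674.4 in 2D and 581 to 681 in 3D. The 2D replicate 6 and 3D replicate 2 arrays stood apart, with an SD over genes of the deviation from their group mean of 0.160 and 0.154 on the log2 scale, against 0.0875 to 0.125 on the others. The RNA control ratio, the mean log2 ratio of 5′ over 3′ probe sets for actin and GAPDH and a readout of how complete the labelled RNA is, had a mean of -0.92 ± 0.14 on the 2D arrays and -0.54 ± 0.17 on the 3D arrays (SD, n = 6; two-sided exact permutation test over 924 assignments, p = 0.00866). It therefore moved with the culture condition, and its part in the results was not tested beyond the values given with it as a covariate. The ratio ran from -1.09 to -0.75 on the 2D arrays. On the 3D arrays it was -0.88 on replicate 2 and -0.55 to -0.40 on the others. The conditions thus overlapped in the ratio only through 3D replicate 2, and every value given with the covariate leans on that array.

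Mitochondrial ribosomal protein genes changed little and in both directions between 3D and 2D culture. With limma at an adjusted p under 0.05, 16 of 73 genes rose in 3D (21.9%, against 19.8% of all genes) and 11 fell (15.1%, against 22.9% of all genes), while 42.7% of all genes passed in either direction. None of the 73 differed by 1.5-fold, a size that 5.83% of all genes reached with a passing p. The log2 fold changes, 3D minus 2D, ran from -0.30 to 0.39 with a median of 0.02, beside a median of -0.05 over all genes. Their SD was 0.16, against 0.35 over all genes, and the median size regardless of sign was 0.10 against 0.14. The small SD and the lack of 1.5-fold changes were not particular to the members. Respiratory chain and ATP synthase subunits and cytosolic ribosomal proteins also held 0 called genes at 1.5-fold, with SDs of 0.13 and 0.12. Their median sizes regardless of sign differed, at 0.09 and 0.19. In 16 of the 73 members the 6 values of one condition lay wholly above the 6 of the other, 8 in each direction. That is 21.9% of the members, beside 22.6% of all genes. As these are bulk cultures, fewer cells of a type and less RNA per cell cannot be told apart.

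**Figure D1:**
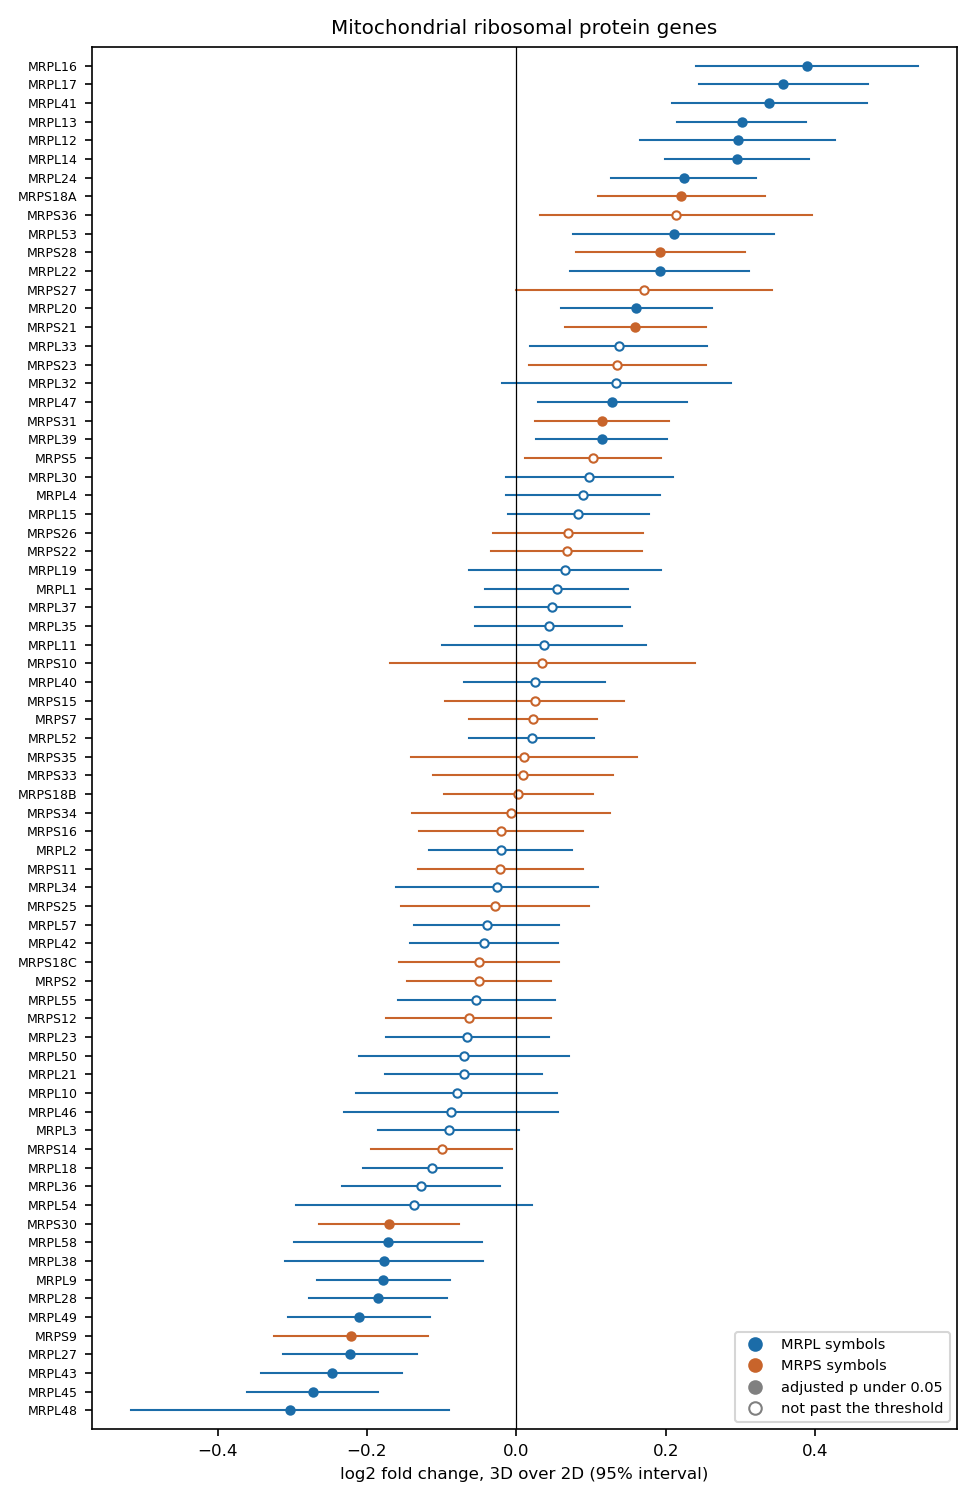
Log2 fold change (3D minus 2D) of each of the 73 mitochondrial ribosomal protein genes, ordered by value, with 95% intervals; blue points are MRPL symbols, orange points MRPS symbols, and filled points have an adjusted p under 0.05. The values lie between -0.30 and 0.39, with 16 filled points above 0 and 11 below.

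The split between rises and falls depended on how arrays were scaled, and this touches every count below. With quantile normalization 9 members rose and 15 fell, so that 37.5% of the calls were rises, against 59.3% as deposited. The shares over all genes were then 17.4% raised and 22.4% lowered. When each array was centred on its median, 20 rose and 9 fell (69% rises), beside 21.2% and 17.7% of all genes. The members' median was -0.05 after quantile normalization and 0.04 after centring. With the RNA control ratio as a covariate 8 members rose and 7 fell, against 12.6% and 8.33% of all genes, and 11 of the 27 calls remained, with 0 in the opposite direction. Without both arrays that stood apart, 18 rose and 11 fell, beside 20.7% and 25.6% of all genes.

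**Figure D2:**
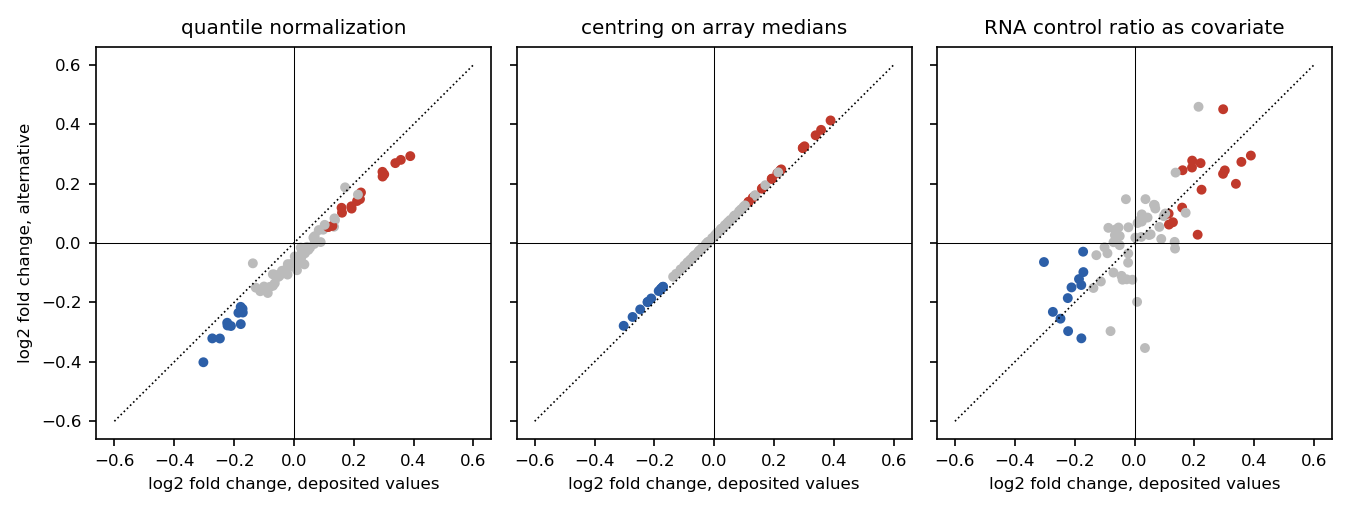
Log2 fold change (3D minus 2D) of each of the 73 members from the deposited values (horizontal axis) against that after quantile normalization, after centring on array medians, or with the RNA control ratio as a covariate (vertical axis, 1 panel each); red points rose and blue points fell past an adjusted p of 0.05 with the deposited values, grey points did not, and the dotted line marks equality. Quantile normalization moves the points down, to a median of -0.05, centring moves them up, to 0.04, and with the covariate they scatter around the line.

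Of the 8 members that rose most, 6 were large subunit proteins that have a bacterial counterpart. MRPL16, which lies in the ribosomal core near the tRNA sites, rose most. Its log2 level, log2(intensity + 1), was 8.48, 8.77 and 8.84 in 2D (lowest, median and highest array) and 8.89, 9.13 and 9.22 in 3D, a difference of 0.39 (SE 0.07) or 1.31-fold (limma, adjusted p = 0.000398). All 6 of the 3D arrays were above the highest 2D array. With the covariate the difference was 0.29, with an adjusted p of 0.0827.

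MRPL17, a protein at the rim of the tunnel through which the new peptide leaves, had log2 levels of 9.14, 9.25 and 9.36 in 2D and 9.49, 9.63 and 9.68 in 3D. It rose by 0.36 (SE 0.05, limma adjusted p = 6.68e-05) with no overlap between conditions. MRPL13 had log2 levels of 9.46, 9.52 and 9.59 in 2D and 9.78, 9.84 and 9.86 in 3D. This rise of 0.30 (SE 0.04, limma adjusted p = 2.40e-05) also left the conditions apart. MRPL14, an interface protein on which the assembly factor MALSU1 docks, had log2 levels of 11.00, 11.06 and 11.10 in 2D and 11.23, 11.37 and 11.41 in 3D. Its rise was 0.30 (SE 0.05, limma adjusted p = 8.63e-05), and every 3D array was above every 2D array. MRPL13, MRPL14 and MRPL17 kept their calls under all 23 alternatives. MRPL14 and MRPL17 have 1 probe set each, so averaging the probe sets of a gene could not change their values.

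MRPL12, the stalk protein that recruits translation factors, had log2 levels of 9.41, 9.66 and 9.76 in 2D and 9.82, 9.93 and 9.97 in 3D. The rise of 0.30 (SE 0.06, limma adjusted p = 0.00129) left no overlap, and with the covariate it was 0.45. The other stalk proteins did not follow it past the threshold. MRPL10, which anchors MRPL12 to the ribosome, differed by -0.08 (adjusted p = 0.328, limma) with an interval of -0.21 to 0.05. With the covariate the MRPL10 difference was -0.30, with an adjusted p of 0.0131 (limma). The array on which that fit leans, 3D replicate 2, held the lowest 3D level of MRPL10, 9.40.

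MRPL24, another protein near the tunnel exit, had log2 levels of 10.14, 10.21 and 10.25 in 2D and 10.33, 10.41 and 10.55 in 3D. It rose by 0.22 (SE 0.05, limma adjusted p = 0.00118) without overlap, and with the covariate the difference was 0.18 with an adjusted p of 0.112. MRPL41, a mitochondrial addition that has also been reported to bind the apoptosis regulator BCL2, had log2 levels of 9.56, 9.67 and 9.77 in 2D and 9.77, 10.03 and 10.13 in 3D. The rise was 0.34 (SE 0.06, limma adjusted p = 0.000436), and 5 of 6 of the 3D arrays were above the highest 2D array. With the covariate it was 0.20, with an adjusted p of 0.155.

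The fall with the largest size was that of MRPL48, a protein of the central protuberance, and it rested partly on 1 array. Its log2 levels were 8.88, 8.93 and 9.59 in 2D and 8.67, 8.72 and 8.91 in 3D, a difference of -0.30 (SE 0.10, limma adjusted p = 0.0261). The conditions overlapped, and the highest 2D value belonged to 2D replicate 6, one of the arrays that stood apart. Without 2D replicate 6 the difference was -0.19, and without both arrays that stood apart it was -0.23 with an adjusted p of 0.00145. The call ended without 3D replicate 3 (adjusted p = 0.0527) and with the covariate, where the difference was -0.06 with an adjusted p of 0.822 (limma). It also ended when a change beyond 1.1-fold was required (limma, adjusted p = 0.273). That requirement ended 21 of the 27 calls, those of MRPL9, MRPL12, MRPL24, MRPL27, MRPL28, MRPL43, MRPL49, MRPS9 and MRPS18A among them.

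MRPL45, which anchors the mitochondrial ribosome to the inner membrane where its products are inserted, had log2 levels of 10.71, 10.76 and 10.86 in 2D and 10.45, 10.50 and 10.53 in 3D. It fell by 0.27 (SE 0.04, limma adjusted p = 7.99e-05), or 1.21-fold, and all 3D arrays were below all 2D arrays. The MRPL45 call held under all 23 alternatives. MRPL43, another mitochondrial addition, had log2 levels of 9.56, 9.59 and 9.66 in 2D and 9.29, 9.34 and 9.48 in 3D. That fall of 0.25 (SE 0.04, limma adjusted p = 0.000401) left no overlap and was -0.25 with the covariate too.

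MRPL27, which reaches toward the site of peptide bond formation, had log2 levels of 10.58, 10.64 and 10.72 in 2D and 10.38, 10.41 and 10.50 in 3D. It fell by 0.22 (SE 0.04, limma adjusted p = 0.000638), and the conditions did not overlap. MRPL49 had log2 levels of 10.09, 10.21 and 10.25 in 2D and 9.93, 9.96 and 10.03 in 3D. Here the fall was 0.21 (SE 0.04, limma adjusted p = 0.00165), again with no overlap. Both calls ended with the covariate. MRPL27 then differed by -0.19 (SE 0.07, adjusted p = 0.0748) and MRPL49 by -0.15 (SE 0.07, adjusted p = 0.173) by limma. A second MRPL49 probe set differed by only -0.06 (adjusted p = 0.657, limma), with overlap between conditions. Averaging the MRPL49 probe sets ended the call.

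MRPL28 had log2 levels of 10.82, 10.89 and 10.97 in 2D and 10.62, 10.71 and 10.78 in 3D, a fall of 0.19 (SE 0.04, limma adjusted p = 0.00336). MRPL9, among the 3 brightest members, had log2 levels of 11.68, 11.71 and 11.81 in 2D and 11.50, 11.56 and 11.59 in 3D, a fall of 0.18 (SE 0.04, limma adjusted p = 0.00346). In both genes the 3D arrays lay below all 2D arrays. With the covariate the differences were -0.12 and -0.14, with adjusted p-values of 0.260 and 0.177 (limma). The other MRPL28 probe sets differed by -0.01 (adjusted p = 0.850) and -0.14 (adjusted p = 0.0253) by limma.

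**Figure D3:**
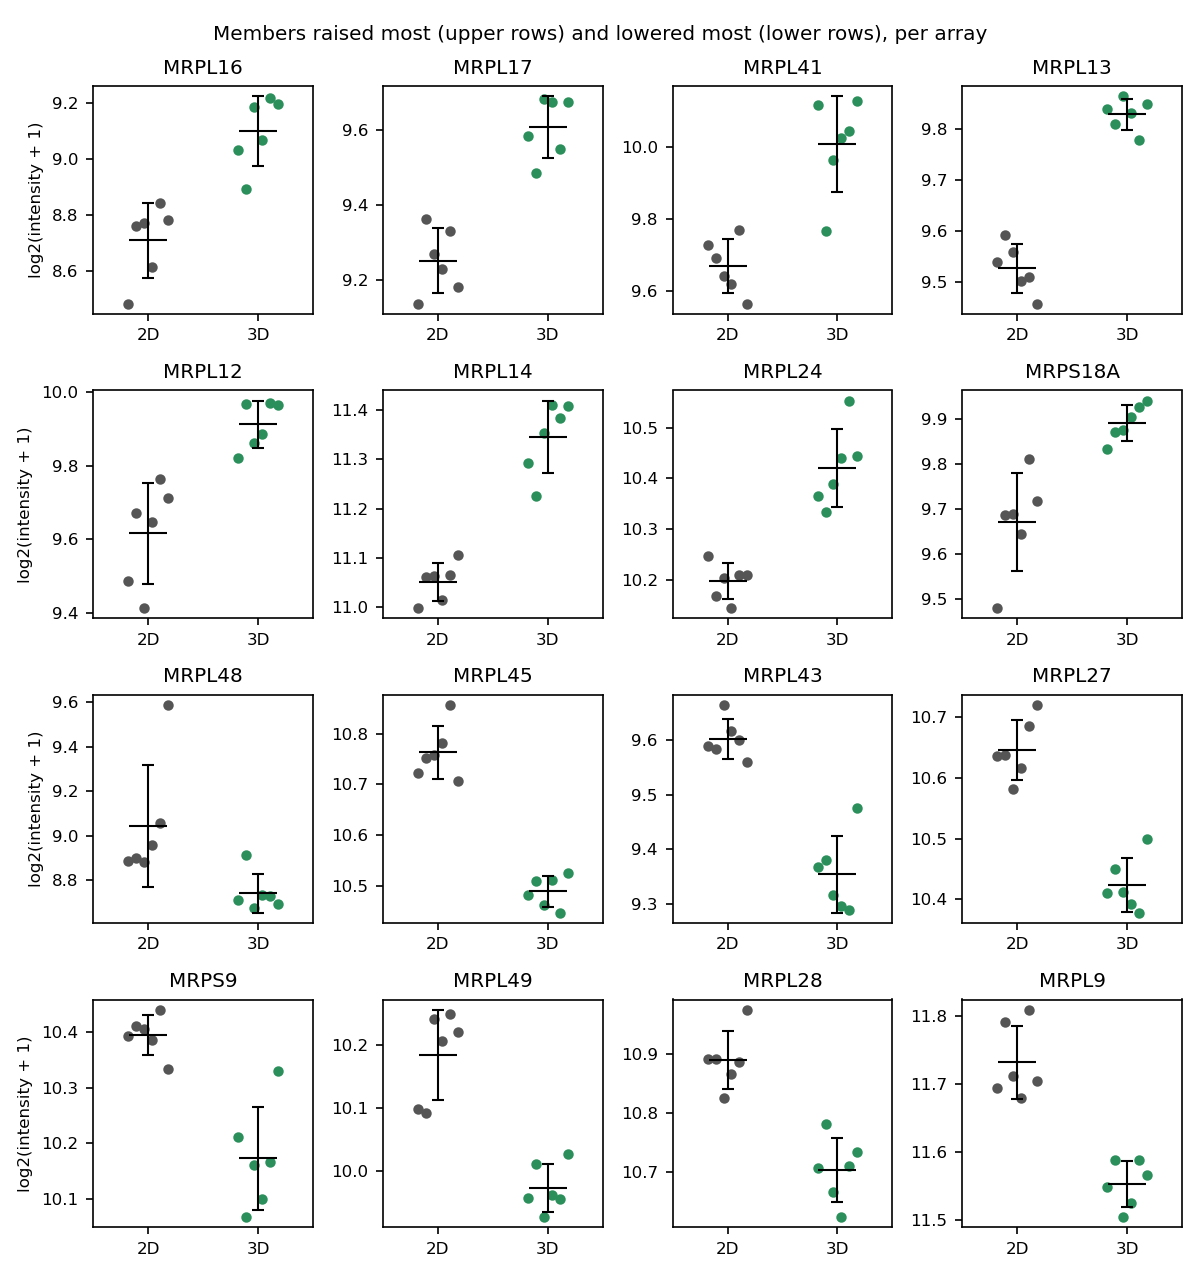
Log2 level, log2(intensity + 1), on each of the 12 arrays for the named genes that rose or fell most; grey points are 2D arrays, green points 3D arrays, and bars are the mean ± SD of 6 arrays. In MRPL16 all 3D points lie above the 2D points, in MRPL45 all lie below them, and in MRPL48 the single high 2D point is 9.59.

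Among genes with MRPS symbols, 4 of 26 rose (15.4%, against 19.8% of all genes) and 2 fell (7.69%, against 22.9%). MRPS18A, which despite its symbol sits in the large subunit, had log2 levels of 9.48, 9.69 and 9.81 in 2D and 9.83, 9.89 and 9.94 in 3D. It rose by 0.22 (SE 0.05, limma adjusted p = 0.00378) without overlap. Its paralogs, which lie in the small subunit, did not pass the threshold. MRPS18B differed by 0.003 (95% interval -0.10 to 0.10) and MRPS18C by -0.05 (-0.16 to 0.06), with adjusted p-values of 0.967 and 0.452 (limma), and the differences between the paralogs were not tested.

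MRPS9, a small subunit protein with a bacterial counterpart, had log2 levels of 10.33, 10.40 and 10.44 in 2D and 10.07, 10.16 and 10.33 in 3D. It fell by 0.22 (SE 0.05, limma adjusted p = 0.00205) with no overlap, and by 0.30 with the covariate. The remaining lowered MRPS gene, MRPS30, also sits in the large subunit. Its other probe sets differed by 0.07 and -0.08 (limma, adjusted p = 0.224 and 0.261), and averaging its probe sets ended the call. MRPS12, at the decoding centre where the codon is read, differed by -0.06 (95% interval -0.17 to 0.05, adjusted p = 0.338, limma). DAP3, a GTP-binding protein of the small subunit that carries neither symbol and is no member, had log2 levels of 9.33, 9.47 and 9.56 in 2D and 9.81, 9.87 and 9.93 in 3D. Its rise of 0.40 (SE 0.05, limma adjusted p = 3.91e-06) exceeded that of MRPL16 in value, and with the covariate it was 0.41.

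The other 8 raised members, MRPL53, MRPS28, MRPL22, MRPL20, MRPS21, MRPL47, MRPS31 and MRPL39, had log2 fold changes of 0.21 down to 0.11. The other 3 lowered members were MRPL38, MRPL58 and MRPS30, at -0.18 to -0.17. MRPL58 is a peptidyl-tRNA hydrolase that frees stalled ribosomes. Leaving out single arrays ended the calls of MRPL38 in 6 of 12 removals, MRPL58 in 5, MRPL39 in 8, and MRPL47 and MRPS31 in 9 each. Together with MRPL48 these are the 6 calls that did not survive all such removals, while the other 21 did. Other alternatives also ended calls in this group. Quantile normalization ended 7, those of MRPL20, MRPL22, MRPL39, MRPL47, MRPL53, MRPS28 and MRPS31. The covariate ended those of MRPL22, MRPL39, MRPL47, MRPL53, MRPS21 and MRPS31, and of the lowered MRPL58 and MRPS30.

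For the 46 members that missed the threshold, the 95% intervals lay between -0.30, the lower bound for MRPL54, and 0.40, the upper bound for MRPS36, and 40 of the 46 lay within 0.25 of 0 on either side. MRPS36 is now known as KGD4, a subunit of the 2-oxoglutarate dehydrogenase complex. It differed by 0.21 with an adjusted p of 0.0592, and by 0.46 with an adjusted p of 0.0115 with the covariate (limma). Brightness differs between probe sets for technical reasons and does not rank transcripts. The brightest, MRPL36 (mean log2 level 12.38), differed by -0.13 with an adjusted p of 0.0525, and MRPL21 (11.61) by -0.07 with 0.269 (limma). The dimmest were MRPL54 (5.81), near the mean control level of 5.71, MRPS27 (6.60) and MRPS34 (7.42). Their differences were -0.14, 0.17 and -0.01, with adjusted p-values of 0.154, 0.105 and 0.937 (limma).

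Grouped by place in the ribosome, 49 of the 73 members were assigned to the large subunit. The shares over all genes, 19.8% raised and 22.9% lowered, stand beside each count from the deposited values that follows. Of its 30 measured proteins with a bacterial counterpart, 9 rose (30%) and 3 fell (10%), with a median log2 fold change of 0.06. Of its 19 mitochondrial additions, 4 rose or 21.1% (MRPL41, MRPS18A, MRPL53 and MRPL39) and 7 fell or 36.8% (MRPL48, MRPL45, MRPL43, MRPL49, MRPL38, MRPL58 and MRPS30), with a median of -0.07. The small subunit had 2 raised (15.4%) and 1 lowered (7.69%) among 13 counterparts, with a median of -0.02. Its 10 additions had 1 raised (10%), MRPS31, and 0 lowered by limma (0 also at an unadjusted p under 0.05), with a median of 0.04. These counts were not tested against each other. After quantile normalization the large subunit counterparts split 6 raised to 6 lowered and the additions 2 to 7, beside 17.4% and 22.4% of all genes. With the covariate they split 5 to 1 and 1 to 3, beside 12.6% and 8.33% of all genes.

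At the rim of the exit tunnel, of 6 proteins MRPL17, MRPL24, MRPL22 and MRPL47 rose (66.7%) and MRPL45 fell (16.7%). The shares over all genes were 19.8% and 22.9%. MRPL23 differed by -0.07 with an adjusted p of 0.322 (limma). After quantile normalization the rim had 2 raised and 1 lowered, and with the covariate 1 raised, MRPL17, and 1 lowered, MRPL45. Of 15 measured members in which mutations are known to cause mitochondrial disease in humans, MRPL12, MRPL24, MRPS28 and MRPL39 rose (26.7%) and MRPL49 fell (6.67%). After quantile normalization these had 2 raised and 3 lowered, and with the covariate 2 and 0 by limma. Over all genes 17.4% were raised and 22.4% lowered after quantile normalization, and 12.6% and 8.33% with the covariate. MRPL44, MRPL51, MRPS6, MRPS17 and MRPS24 were not analysed here.

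Several probe sets measured 58 of the 73 genes, up to 5 each, and none of those genes had calls in both directions. Over the 162 probe sets 31 rose, 19.1% against 16.7% of all probe sets, and 24 fell, 14.8% against 22%. In 11 of the 58 genes every probe set passed in 1 direction: MRPL9, MRPL12, MRPL13, MRPL16, MRPL20, MRPL24, MRPL27, MRPL45, MRPL53, MRPS18A and MRPS21. The 3 probe sets of MRPS18A gave rises of 0.22, 0.21 and 0.45. In 10 genes another probe set passed where the representative did not. MRPS27 was such a case, with 0.17 (adjusted p = 0.105, limma) for the representative and -0.29 (adjusted p = 0.0151) for another probe set. That other probe set was above the control level on 2 of 6 of the 2D arrays and 0 of 6 of the 3D arrays (mean log2 levels 5.65 and 5.36), so its value compares signals near background. MRPS26 was another, with 0.07 for the representative and 0.32 (adjusted p = 0.00160, limma) for its second probe set. Of the 35 further probe sets of called genes, 33 had the sign of the representative and 17 passed the threshold with it. Averaging the probe sets of each gene ended 6 calls, those of MRPL47, MRPL49, MRPL58, MRPS28, MRPS30 and MRPS31, and added 9. Probe sets of the types that can hybridise with related transcripts represented 36 of the 73 genes, so their values may include another transcript.

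**Figure D4:**
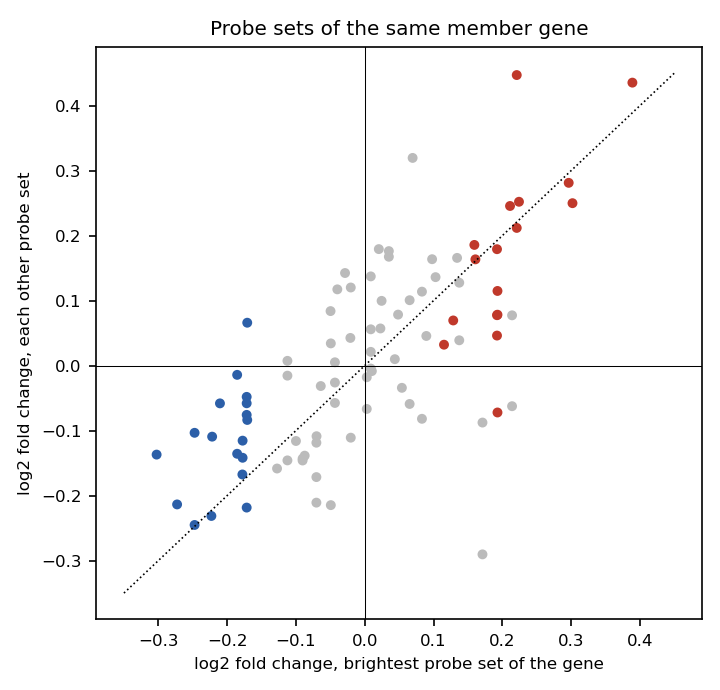
Log2 fold change (3D minus 2D) of the brightest probe set of each member with several (horizontal axis) against that of each of its other probe sets (vertical axis); red points belong to genes that rose and blue points to genes that fell past an adjusted p of 0.05 by the brightest probe set, grey points to the rest, and the dotted line marks equality. Of the 35 coloured points 33 have the same sign on both axes, and the lowest grey point is MRPS27 at 0.17 and -0.29, the second from a probe set near background.

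The genes that build and supply the mitochondrial ribosome moved in different directions. Here and in the lists that follow, counts from the deposited values stand beside 19.8% of all genes raised and 22.9% lowered. Other settings had other shares, 17.4% and 22.4% after quantile normalization and 12.6% and 8.33% with the covariate. Without both arrays that stood apart they were 20.7% and 25.6%. Among 22 genes of its assembly and RNA modification, 4 rose (18.2%) and 8 fell (36.4%), with a median log2 fold change of -0.11. TFB1M, which methylates the small subunit RNA, rose by 0.52 (SE 0.08), RPUSD3, a pseudouridine synthase, rose by 0.51 (SE 0.07), and METTL17, a small subunit assembly factor, fell by 0.39 (SE 0.05). The falls were 5 with the covariate and also without both arrays that stood apart. MALSU1, the partner of MRPL14 and named here after its value was seen, fell by 0.34 (limma, adjusted p = 1.43e-05) where MRPL14 rose. Among 5 further subunits under other names, DAP3 and CHCHD1 rose (0.22 for CHCHD1) and AURKAIP1 fell by 0.17, with 2 falls after quantile normalization. Of 16 translation factors 2 rose (12.5%) and 5 fell (31.2%), with MRRF, the ribosome recycling factor, up by 0.30, the initiation factor MTIF2 down by 0.21 and the elongation factor GUF1 called as lowered. The GUF1 probe set was above the control level on 0 of 12 arrays (mean log2 levels 5.52 in 2D and 5.30 in 3D), so its call compares values at background. The 5 falls were 3 in the removals of 2D replicates 3 or 4 or 3D replicates 1, 4, 5 or 6, and 0 with the covariate.

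Of 15 mitochondrial aminoacyl-tRNA synthetases, which load tRNAs, 2 rose (13.3%) and 3 fell (20%), both below the shares over all genes, with VARS2 up by 0.36, FARS2 down by 0.51 and WARS2 down by 0.23. Without 3D replicate 2 the rises were 4, beside 21.2% of all genes. When both arrays that stood apart were left out, the falls were 5, beside 25.6%. Of 14 genes for upkeep and transcription of mitochondrial DNA 5 rose (35.7%) and 0 fell by limma, with 0 lowered also at an unadjusted p under 0.05. POLG2, the accessory subunit of the mitochondrial DNA polymerase, rose by 0.34, RNASEH1 by 0.29 and DGUOK, which makes DNA precursors, by 0.24. After quantile normalization and with the covariate these counts were 3 raised and 1 lowered. Of 33 import and folding genes 14 rose (42.4%) and 4 fell (12.1%), with the matrix protease LONP1 up by 0.41, the outer membrane import subunit TOMM5 up by 0.38 and the import motor subunit PAM16 down by 0.35. After quantile normalization they split 7 to 8, and with the covariate 8 to 2.

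Of 10 regulators of mitochondrial gene expression 3 rose (30%) and 1 fell (10%), with MYC up by 0.68 (SE 0.08), PPRC1 by 0.24 and GABPB1 by 0.23, and 2 fell without both arrays that stood apart. Of 62 respiratory chain and ATP synthase subunits encoded in the nucleus 4 rose (6.45%) and 19 fell (30.6%), with the complex I subunits NDUFS8 down by 0.45, NDUFV3 down by 0.37 and NDUFC2 up by 0.28. These counts were 30 lowered after quantile normalization, beside 22.4% of all genes. With the covariate they were 1 raised and 6 lowered, beside 12.6% and 8.33% of all genes. Of 55 cytosolic ribosomal proteins 1 rose (1.82%), RPS10 by 0.25, and 40 fell (72.7%). Their median was -0.18, against 0.02 for the mitochondrial ribosomal proteins and -0.05 over all genes. RPL17 fell by 0.50, RPLP1 by 0.49 and RPL12 by 0.39, and with the covariate 23 of the 55 fell and 0 rose by limma. The difference between the lists was not tested, as the mitochondrial list was chosen with results of these arrays known.

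**Figure D5:**
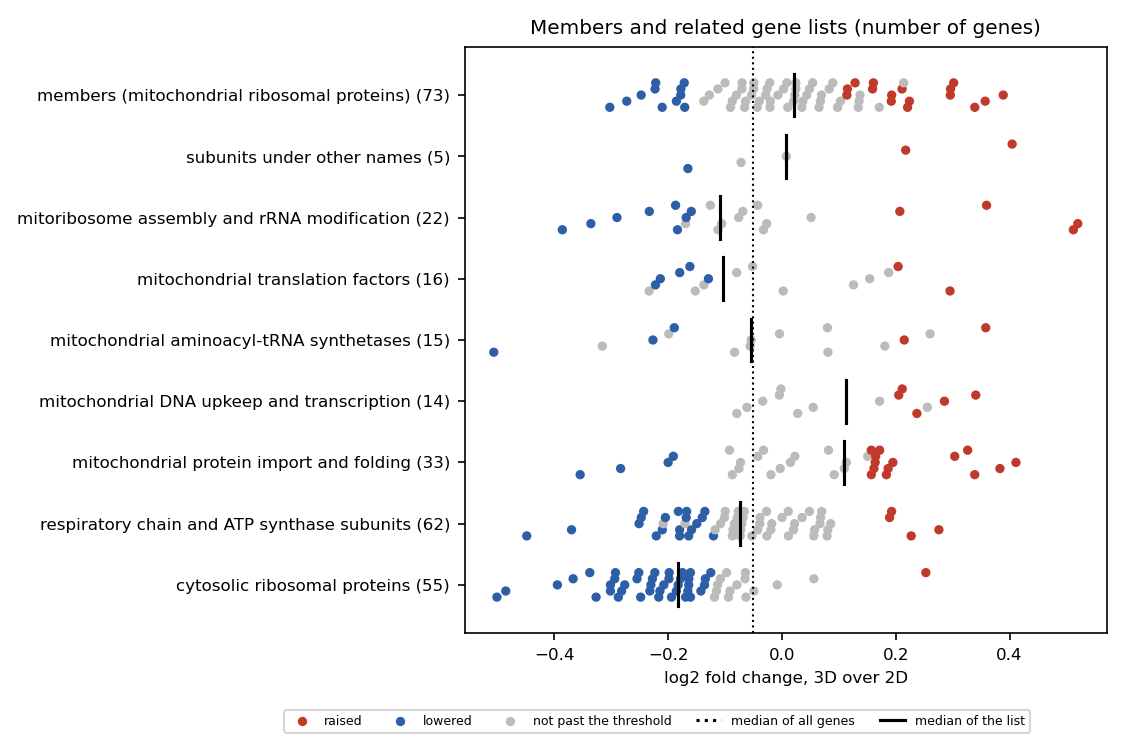
Log2 fold change (3D minus 2D) of each measured gene in the mitochondrial ribosomal protein list and its companion lists other than the regulators, 1 line of points per list; red points rose and blue points fell past an adjusted p of 0.05, grey points did not pass, black bars are list medians and the dotted line is the median of all genes. The mitochondrial ribosomal proteins centre on 0.02, and the cytosolic ribosomal proteins centre on -0.18 with 40 of 55 lowered.

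Within each condition, the members also shared array to array differences. Of the 2D arrays, replicate 5 gave the highest level of 40 of the 73 members and replicate 1 the lowest of 30. Of the 3D arrays, replicate 6 gave the highest level of 32 members and replicate 2 the lowest of 29. Such counts were not made for all genes or for genes of like brightness. Whether the pattern is particular to the members was not tested. In 2D replicates 5 and 1 the median deviation from the group mean was 0.08 and -0.05 over members. Over all genes it was 0.01 and -0.004. In 3D replicates 6 and 2 it was 0.05 and -0.03 over members, and 1.88e-05 and 0.02 over all genes. The median log2 level over members ran from 10.09 to 10.26 across the 12 arrays, a range close to the size of the smaller rises and falls.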

How the data were processed

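The authors deposited linear intensities, 1 for each of 43035 probe sets on each of 12 one-colour Affymetrix dog arrays. Per the submitters' processing notes GCRMA was used, without a version. Its settings, and whether arrays were scaled afterwards, are not stated. From these values log2(intensity + 1) was computed without further normalization, which makes fold changes of dim genes smaller than on the linear scale.

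The 111 control probe sets were left out, and the other 42924 entered limma's lmFit and eBayes (limma 3.58.1, R 4.3.3). The group was the only term, the test was two-sided, and p-values were adjusted by Benjamini-Hochberg over all probe sets, with a threshold of 0.05. Of the probe sets 29254 named 1 gene, 439 several and 13231 none. Genes were named from the platform annotation, and 1 probe set naming several genes with a member among them was left out. The gene identifiers of 149 of the 162 member probe sets were found in RefSeq (UU_Cfam_GSD_1.0), where 0 symbols differed. The control level was the 95th percentile of 59 bacterial and tag probe sets on each array. No member gene was at or below it on all arrays of a group, though 6 of the 162 probe sets were at or below it on all 12.

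The members and lists were chosen with earlier results of these data known. Named were the 8 members that rose and the 8 that fell most, the 3 brightest and 3 dimmest, the MRPS18 paralogs, MRPL12, MRPL10, MRPL45, MRPS12, DAP3, and up to 3 called genes per companion list. MRPS26, MRPS27's second probe set, MRPS36, MRPL23, MALSU1, RPS10 and the remaining called members were named after their values were seen. The number of arrays, 6 per group, limits the precision. The fit was tested on simulated data in which 200 of 42924 probe sets were changed, far fewer than passed in the real data. It recovered 14% of log2 changes of 0.2 and 73% of those of 0.4, with 5 of 92 calls false. In that setting most changes of 0.2 were therefore missed. Alternatives changed the normalization, filter, variance prior, array weights, pseudocount, gene summary, minimum change, RNA control covariate and arrays used.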

Additional observations from a re-analysis of the deposited data

Results flagged for a closer look

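Of 54 sets of 6 arrays examined for the named genes and the RNA control ratio, 5 held an array set apart from the other 5 by a gap large against the range of the set, where chance gives about 1 in 20. For MRPL48 the 2D replicate 6 array measured 9.59 on the log2 scale with the nearest array at 9.06. In 3D the MRPL48 level of replicate 2 was 8.91 with the nearest at 8.73, and these are the arrays that differed most from their groups over all genes. MRPL54 measured 5.61 in 3D replicate 6 with the nearest at 5.74, both near the control level. MRPS18B measured 10.96 in 2D replicate 5 with the nearest at 10.81. The RNA control ratio of 3D replicate 2 was -0.88 with the nearest at -0.55.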

How the results depend on the processing

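Over 23 alternatives, the 26 named genes, DAP3 included, gave 598 recomputed values, of which 550 kept their sign and side of the threshold, 20 were no longer past it, 11 newly passed it and 17 changed sign. The count of raised members was 9 after quantile normalization, 8 with the RNA control covariate and 5 when a change beyond 1.1-fold was required. The shares of all genes raised were then 17.4%, 12.6% and 11.1%. The count of lowered members was 7 with the covariate and 1 with the 1.1-fold requirement, beside 8.33% and 5.19% of all genes. The members' median was -0.050 after quantile normalization. Leaving out 1 array at a time gave 13 to 19 raised, 9 to 13 lowered and a median of 0.003 to 0.03. Over all genes 18.1% to 21.2% were then raised and 18.4% to 26.1% lowered. The sign changes were in genes with differences near 0 or with discordant probe sets. MRPS12 was 0.045 and MRPS18C 0.023 with the covariate, MRPS18B -0.045 after quantile normalization and -0.027 as the mean of its probe sets, and MRPS27 -0.069 as such a mean, which takes in a probe set near background. MRPS34 was 0.017 after centring, 0.036 with array weights and 0.051 without both arrays that stood apart. Without single arrays MRPS18B ran from -0.012 to 0.033 and MRPS34 from -0.032 to 0.026. Arrays of the same replicate number correlated by 0.0008 to 0.36 over genes. The labels do not say whether the numbers pair arrays, and the main fit took no pairing. With the replicate number as a block 15 rose and 11 fell, beside 20.2% and 23.4% of all genes. MRPL39, MRPL47 and MRPS31 were then no longer called, and MRPL33 and MRPS36 were newly called. In 4 of 6 cases a 2D array correlated best with the 3D array of its own number, so these values do not settle whether arrays were paired. The cause of each difference between alternatives was not tested. A filter on dim probe sets left 12435 genes and 16 raised and 13 lowered members, beside 23.9% and 24.6% of those genes. Dim probe sets such as that of MRPL54 near the control level can hold only small measurable changes.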
